A study of Saccharomyces cerevisiae with 9 samples.

Results

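Transcripts of commercial dry active yeast were compared with those of control BY4743 cells, with 3 one-colour Affymetrix Y98 arrays of total RNA on each side. The samples were taken by the titles of the value columns, which gave 6 of the 9 arrays of the series, and every probe set that was not an array control was included, 9275 of 9335. The commercial dry active yeast is a Saccharomyces cerevisiae product whose strain, culture and drying are not given in the sources used here: its sample descriptions repeat the text written for BY4743. Control BY4743 cells, a diploid derived from S288C, which carries deletions in URA3, LEU2 and HIS3 on both chromosome sets and in LYS2 and MET17 on one, were grown in rich glucose medium at 30 °C to an A600 of 0.8. They were then resuspended in the same medium diluted 1:20 at 22 to 25 °C and sampled before any drying. The remaining 3 arrays held BY4743 that had been dried for 42 h and kept at 20% relative humidity for 72 h, and they are compared here only to test where the commercial yeast also differed from a dried laboratory strain. All 9 arrays entered one normalization and fit, so the dried arrays also bear on the errors and p-values of the comparison with the control. Effects of strain, culture and drying on the difference between commercial and control yeast cannot be told apart.

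Bakers' and wine yeasts are propagated so that cells enter drying with storage carbohydrate and stress proteins in place. Trehalose, hydrophilins and small heat shock proteins are known to protect membranes and proteins of dry cells, while growth on glucose represses genes for respiration, fat breakdown and gluconeogenesis and keeps genes for ribosomes, replication and wall building active.

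The platform annotation named exactly 1 gene for 6504 probe sets, several genes for 328 and none for 2443. A gene with several probe sets is represented in counts by the brightest one, which gave 5656 genes. A signal is the quantile-normalized intensity on a linear scale, a change is commercial minus control on the log2 scale, values after ± are SD over 3 arrays, and adjusted p-values are limma's after Benjamini-Hochberg adjustment over all 9275 probe sets. Background is the 95th percentile of 28 control probe sets with no target in the sample, and ran from 33.0 to 44.2 on commercial arrays and from 32.2 to 46.5 on control arrays. On dried BY4743 arrays background was higher, from 46.7 to 59.5. Where all 3 arrays of a group lay at or under it, the fold is a bound against background, and the p beside it belongs to the fitted change. The labels do not say whether replicate arrays stand for separate cultures. A p-value therefore covers only array-to-array spread, possibly technical.

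The transcript pools differed over most of the array. Across probe sets, none of them an independent replicate, arrays correlated at a Pearson's r of 0.978 to 0.981 within commercial yeast and 0.971 to 0.976 within the control, against 0.764 to 0.779 between these groups. Commercial yeast was higher on 3293 probe sets (35.5%) and lower on 3434 (37%) at an adjusted p under 0.05 (3197 and 3354 with only the 6 arrays compared), and at least 2-fold so for 2095 (22.6%) and 2237 (24.1%). By gene, 2102 (37.2%) were higher and 2368 (41.9%) lower, 79% in all, with a median change of -0.08 over all genes. The arrays of both groups did not overlap on 75.5% of probe sets. These shares are the background against which every count below has to be read. A bulk array cannot tell fewer cells with a transcript from less transcript per cell.

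**Figure D1:**
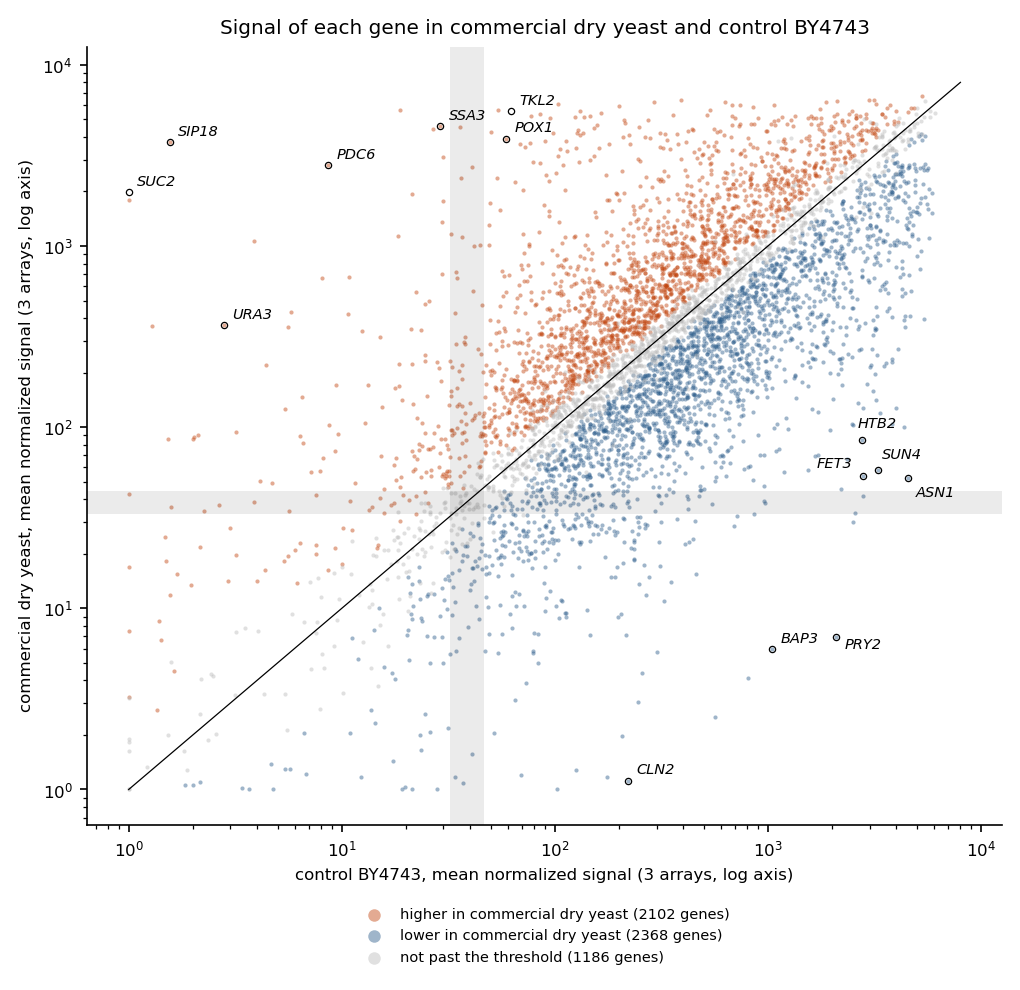
Mean normalized signal of each gene over 3 commercial arrays (vertical log axis) and 3 control arrays (horizontal log axis), coloured by call. Grey bands mark the range of array backgrounds, circles the probe sets without shared probes of named genes; SIP18 lies in the upper left at 3729 in commercial yeast and 1.56 in the control, and ASN1 in the lower right at 52.4 and 4534.

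The size of these changes is relative to the middle of each array. With arrays scaled to the bacterial spike-in controls, which all read brighter on commercial arrays, the median of all genes moved to -1.59, and commercial yeast then had 814 higher and 6070 lower probe sets. It was 0.06 with the signals as deposited and -0.09 with arrays centred on their medians. These 3 scalings differ only by 1 constant per array, so list medians measured against the median of all genes are identical in all 3. Such relative medians can check the quantile normalization, but not the choice among the 3 scalings. Without quantile normalization they kept their sign for the 44 gene lists, except for 3 lists. These were the lists of the proteasome, of thiamine and related vitamins, and of iron, copper and zinc. The medians themselves changed sign for 21 lists with the spike-in scaling and for 2 lists with each of the other scalings. Apart from the lists described so below, the spike-in scaling turned to negative medians those of glycogen, the osmotic response, glycolysis, fermentation, hexose transporters, the TCA cycle, the proteasome, nitrogen catabolite genes, metals, mating genes and the marker loci. Among genes named below, LEU2, NTH2, PIG2, GIP2, MDJ1, SSA4, TPI1, SDH3, RPS21A, RPN4, ARE2 and FUS2 kept a positive change with that scaling but did not pass the test. RNA quality differed as well: the 3' minus 5' difference of the ACT1 control probe sets was 0.418 ± 0.098 in commercial yeast and -0.395 ± 0.274 in the control (log2, n = 3 each, exact two-sided permutation p = 0.1, the smallest possible). It was higher by 0.675 for SPT15 and by 1.42 for SRB4, each with the same exact p of 0.1. The part of RNA quality in the changes below was not tested.

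The marker genes of BY4743 matched the genotype in part. URA3, orotidine 5'-phosphate decarboxylase of uracil synthesis, had signals of 358, 404 and 332 on the commercial arrays, against 2.43, 2.74 and 3.22 on the control arrays, all 3 of the control at background. The groups stood far apart, by at least 8.86-fold (adjusted p = 8.76e-09). LEU2, of leucine synthesis, read 382 ± 54.3 in commercial yeast and 84.5 ± 11.4 in the control, a change of 2.18 (SE 0.39). Its control signal lay above background, against the genotype, while a second LEU2 probe set with shared probes read 253 ± 103 in commercial yeast and 16.8 ± 13.4 in the control, at background. HIS3, of histidine synthesis, was also above background in the control, although BY4743 carries a deletion in it. It read 335, 349.7 and 411 in commercial yeast and 1143, 915 and 1020.1 in the control (change -1.49). No probe positions were used here that would place these LEU2 and HIS3 probes inside or outside the deleted parts. LYS2 and MET17, which BY4743 still carries on one chromosome set, were measured in both groups, with changes of -0.66 and 0.68. The call of LYS2 was lost with the signals as deposited, without control replicate 1 and without commercial replicate 2 or 3, and MET17 turned negative with the spike-in scaling.

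The 8 genes that rose furthest among those measured on all 6 arrays, by probe sets without shared probes, were TKL2, SHH3, PUT4, POX1, CRC1, CTA1, ADY2 and MLS1. TKL2, a transketolase isoform of the pentose phosphate pathway, had signals of 5440.0, 5571 and 5639 in commercial yeast and 66.2, 59.1 and 60.6 in the control. It rose by 6.49 (SE 0.12, adjusted p = 1.17e-08), and its other probe sets by 5.15 and 4.04. POX1, the acyl-CoA oxidase that starts fatty acid oxidation, read 3901, 3920 and 3926 in commercial yeast and 58.0, 49.9 and 69.7 in the control. Commercial arrays lay close together here and all far above the control, with a change of 6.06 (SE 0.13, adjusted p = 2.20e-08). PUT4, the proline permease, CRC1, the mitochondrial carnitine carrier, and CTA1, the peroxisomal catalase, rose by 6.09, 5.96 and 5.87. ADY2, an acetate carrier, and MLS1, malate synthase of the glyoxylate cycle, rose by 5.75 and 5.74, and SHH3, a protein similar to a subunit of succinate dehydrogenase, by 6.42.

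The 8 genes that fell furthest by the same rule were ASN1, SUN4, FET3, CIS3, SIM1, SAM1, HTB2 and HIS1. ASN1, asparagine synthetase, had signals of 44.7, 68.3 and 44.1 in commercial yeast and 5151, 3798 and 4655 in the control. The 3 commercial arrays were above background and far below every control array, and the change was -6.46 (SE 0.20, adjusted p = 8.31e-08). SUN4, a wall protein of mother and daughter separation, read 46.0, 65.4 and 63.0 in commercial yeast and 3268, 3339 and 3261 in the control, a change of -5.84 (SE 0.15). FET3, a multicopper oxidase needed for iron uptake, read 48.6, 49.6 and 62.3 against 2610.1, 2509 and 3222 in the control and fell by 5.70 (SE 0.15). CIS3 and SIM1, also proteins of the wall, fell, with changes of -5.43 and -5.23, SAM1, an S-adenosylmethionine synthetase, fell by 5.14, HTB2, histone H2B, fell by 5.02, and HIS1, the first enzyme of histidine synthesis, fell by 4.998.

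By 1 probe set each, some genes were above background on the commercial arrays and at background on all control arrays. SIP18, a hydrophilin of dry and salt-stressed cells, had signals of 3893, 3768 and 3526 in commercial yeast and 1.66, 1 and 2.03 in the control, where 1 is the floor. It was at least 90.9-fold higher (adjusted p = 2.03e-08). SSA3, an Hsp70 of stationary cells, scattered in commercial yeast, at 4829, 5612 and 3289, but every commercial array exceeded the control values of 32.2, 15.0 and 39.6, at least 109-fold. SFC1, the mitochondrial succinate and fumarate carrier, was at least 108-fold higher, STL1, the glycerol importer, at least 75.7-fold, and PDC6, a pyruvate decarboxylase isoform, at least 68.2-fold. YIG1 was at least 57.9-fold higher. YDR524C-B was at least 83.1-fold higher by one probe set, while another with shared probes read 5363 ± 345 in commercial yeast and 3426 ± 920 in the control. SUC2, the secreted invertase, read 2042, 2011 and 1897 against the floor of 1 on all control arrays, at least 48.3-fold, but its probe sets with shared probes read 2486 and 914 in commercial yeast and 541 and 681 in the control, so presence in the control was not settled.

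Other transcripts were read in the control only. PRY2, a secreted sterol-binding protein, had signals of 3.46, 3.73 and 13.7 in commercial yeast, all at background, and 2107, 2175 and 1985 in the control, at least 56.2-fold lower (adjusted p = 1.55e-06). BAP3, an amino acid permease, was at least 27.9-fold lower, PAN5, of pantothenate synthesis, at least 21.5-fold, CYK3, of cytokinesis, at least 18.5-fold, and PRM8, of the DUP240 family, at least 15.1-fold. DSE1, a daughter cell protein, and CHS2, the chitin synthase of the septum, were at least 12.4-fold and 12.02-fold lower. FKS1, the main glucan synthase, was at background in commercial yeast by one dim probe set, at least 14.3-fold lower, but its brightest probe set read 745 ± 117 in commercial yeast and 5155 ± 236 in the control, a change of -2.80 (SE 0.12). By gene, 140 genes lay at background on all control arrays but not on all commercial arrays, and 219 lay at background on all commercial arrays but not on all control arrays.

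**Figure D2:**
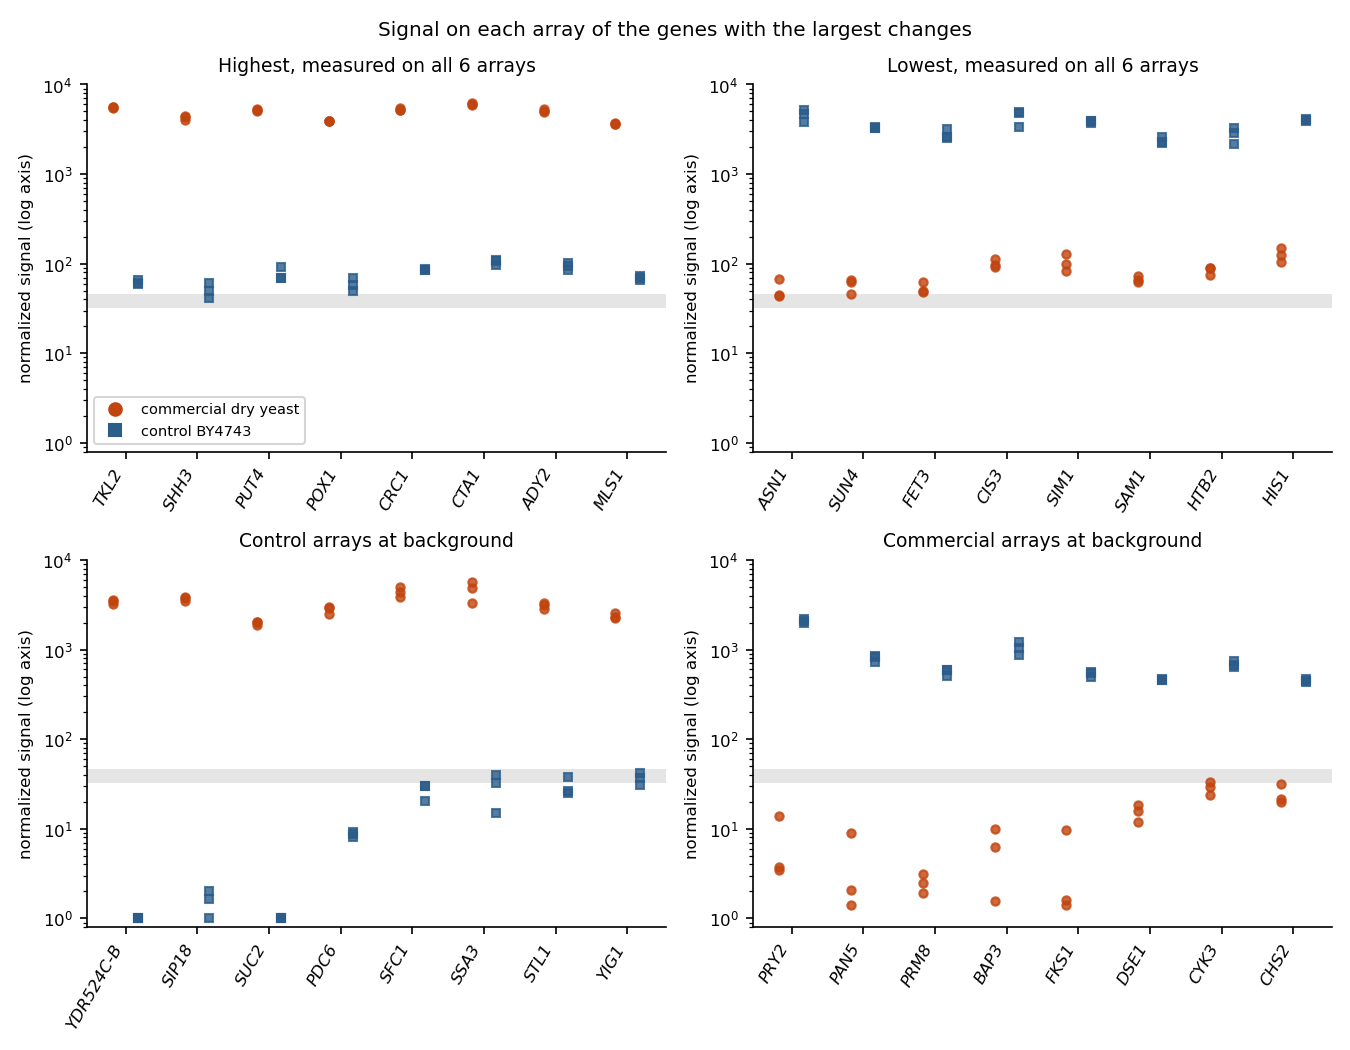
Normalized signal (vertical log axis) on each array, commercial dry yeast as circles left of control BY4743 as squares, for the genes with the furthest changes, 8 to a panel; the grey band spans array backgrounds. The groups do not overlap in any panel, and commercial arrays of SSA3 run from 3289 to 5612.

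Proteins that protect dry cells gave a mixed picture. Of 15 hydrophilin and desiccation genes on the array 9 were higher and 2 lower in commercial yeast, with a median of 1.51 (4 higher, 6 lower and -0.06 with the spike-in scaling). GRE1, a hydrophilin, read 5612, 5553 and 5756 in commercial yeast and 41.5, 56.3 and 64.5 in the control, of which 2 arrays lay above background, and rose by 6.73 (SE 0.18). SPG4, required in stationary phase, and GRE2, a methylglyoxal reductase, rose by 3.40 and 3.52. WWM1 and NOP6 fell, with changes of -1.56 and -1.19. HSP12, the abundant membrane-protecting hydrophilin, was bright in both groups, at 4410.2 ± 255 in commercial yeast and 4642 ± 696 in the control, and its change of -0.07 (SE 0.18, adjusted p = 0.761) did not pass. STF2, another hydrophilin, likewise did not pass, at 5758 ± 802 and 5013 ± 427 (change 0.19, SE 0.15).

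Trehalose genes were high in both groups. Of 8 genes 6 were higher and 1 lower in commercial yeast, with a median of 0.83 (2 higher, 4 lower and -0.77 with the spike-in scaling). The higher ones include MAL11, an alpha-glucoside carrier that is also counted among the maltose genes below, with a change of 3.34. TPS1, trehalose phosphate synthase, read 3816, 3751 and 3917 in commercial yeast and 2799.5, 2614 and 2848 in the control, a small rise of 0.48 (SE 0.07, adjusted p = 3.72e-04), and TSL1, a regulatory subunit, rose by 0.82. Both changes were negative with the spike-in scaling, at -1.05 and -0.67. ATH1 and NTH2, which break trehalose down, rose more, by 2.90 and 1.96, and TPS3, another regulatory subunit, fell by 0.93. Glycogen genes moved both ways, with 7 of 15 higher and 5 lower and a median of 0.14. SGA1, a glucoamylase of sporulating cells, rose by 2.87, PIG2 and GIP2, which target a phosphatase to glycogen metabolism, rose by 2.15 and 1.96, and GSY1, a glycogen synthase, fell by 1.26.

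Chaperones and antioxidant enzymes were mostly higher, except with the spike-in scaling. Of 27 heat shock genes 21 were higher and 2 lower (median 0.67), but 3 and 14 (median -0.81) with that scaling. HSP26, a small heat shock protein, read 3798, 3798 and 3665 in commercial yeast and 434, 403 and 402 in the control, a clear gap and a change of 3.18 (SE 0.07, adjusted p = 2.35e-08). BTN2, a protein-sorting factor, MDJ1, a mitochondrial co-chaperone, and SSA4, an inducible Hsp70, rose by 2.69, 2.25 and 2.04, and HSP104, the disaggregase, by 0.42 (SE 0.13). The HSP104 call was lost with arrays centred on their medians (0.15), with the signals as deposited and without commercial replicate 1 or 2 or control replicate 1, and its change was -1.35 with the spike-in scaling. Of 31 oxidative defence genes 19 were higher and 10 lower (median 0.65), but 6 and 18 (median -0.96) with the spike-in scaling. CTT1, the cytosolic catalase, read 5084 ± 274 in commercial yeast and 899 ± 130 in the control (change 2.51, SE 0.17), and OYE3, an NADPH oxidoreductase, rose by 2.59. GPX2, a glutathione peroxidase, lay at background in commercial yeast and was at least 5.12-fold lower.

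Osmotic genes moved both ways, 9 of 18 higher and 8 lower with a median of 0.26. STL1 had signals of 3327, 2833 and 3168 in commercial yeast and 26.6, 25.3 and 37.7 in the control, all of these at background. AQY1, a water channel, read 1174, 1252 and 1088 in commercial yeast and 58.6, 73.1 and 80.9 in the control, with no overlap and a change of 4.06 (SE 0.13, adjusted p = 9.99e-08). ENA5, a sodium pump, rose by 4.16 (SE 0.18). SHO1, an osmosensor, fell by 2.92 with 1 commercial array above background, and HOG1, the kinase of this pathway, fell by 1.83.

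Of 23 genes for gluconeogenesis, the glyoxylate cycle and acid carriers 21 were higher and 0 lower in commercial yeast, and their median of 4.21 was the highest of the 44 lists. With the spike-in scaling 17 were higher and 2 lower (median 2.86). PCK1, which commits carbon to gluconeogenesis, read 5088, 5131 and 5151 in commercial yeast and 153, 151 and 106 in the control, a change of 5.25 (SE 0.16, adjusted p = 9.44e-08). FBP1, fructose bisphosphatase, rose by 5.23, JEN1, the lactate and pyruvate carrier, by 5.41, and ICL1, isocitrate lyase, by 4.04. Of 27 fatty acid oxidation and peroxisome genes 25 were higher and 0 lower (median 2.38), or 13 and 4 (median 0.73) with the spike-in scaling. PXA1 and PXA2, the pair that imports fatty acids into peroxisomes, rose by 4.60 and 4.75, and POT1, the last enzyme of the oxidation cycle, by 4.47.

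Nuclear-encoded genes of respiration rose less and less evenly. Of 36 nuclear-encoded genes of the respiratory chain and ATP synthase 21 were higher and 12 lower (median 0.50), but 1 and 28 (median -1.28) with the spike-in scaling. NDE2, a mitochondrial NADH dehydrogenase, rose by 4.56 (SE 0.08), CYT1, cytochrome c1, by 1.46 (-0.25 with that scaling), and COX5B and CYC7, isoforms of low oxygen, and ATP5 fell, with changes of -1.64, -1.79 and -1.89. Among 21 genes of the TCA cycle 9 were higher and 5 lower (median 0.17), and SDH3, a subunit of succinate dehydrogenase, rose by 1.70. Of 8 protein genes of the mitochondrial genome 5 were higher and 0 lower (median 3.32), or 5 and 2 (median 2.17) with the spike-in scaling. COX3 had signals of 1057, 1131 and 821 in commercial yeast and 109, 58.0 and 60.6 in the control, a change of 3.77 (SE 0.27, adjusted p = 6.03e-06). ATP6 and COB rose by 5.60 and 3.96, COX2 was at least 8.73-fold higher, and VAR1, the other one counted as higher, lay at background on all 6 arrays.

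Isozymes and alternative carriers are given side by side here, as sets put together after their values were seen. HXT5, the hexose carrier of slow-growing cells, read 5529.6, 5419 and 5249 in commercial yeast and 143, 159 and 189 in the control, a change of 5.05 (SE 0.20). Of 15 hexose transporters and sensors 8 were higher and 5 lower (median 0.29), and of 15 fermentation and aldehyde dehydrogenase genes 6 were higher and 6 lower (median 0.02). HXT1, HXT3 and HXT4, carriers of growth on glucose, fell, with changes of -2.27, -1.63 and -2.66. PDC6 rose while PDC1, the main pyruvate decarboxylase, read 4389 ± 173 in commercial yeast and 4380.4 ± 823 in the control (change 0.02, SE 0.14, adjusted p = 0.905). ACS1, the acetyl-CoA synthetase repressed by glucose, rose by 3.29 and ACS2 fell by 2.19. ALD3, a stress-induced aldehyde dehydrogenase, rose by 4.42 and ALD5, a mitochondrial one, fell by 3.82. HXK2, the hexokinase of growth on glucose, fell by 2.502 and HXK1 fell by 0.26 (SE 0.08), a call lost with the signals as deposited, with arrays centred on their medians and without control replicate 3. PGM1, the minor phosphoglucomutase, fell by 4.34, while PGM2 changed by -0.11 (SE 0.12, adjusted p = 0.453). GDH3 and GDH1, glutamate dehydrogenases, changed by 4.89 and -1.95, TRR2 and TRR1, the mitochondrial and cytosolic thioredoxin reductases, by 2.57 and -2.47, and AQY1 and AQY2, aquaporins, by 4.06 and -0.83. Other pairs moved the same way: SUL1 and SUL2, sulfate permeases, by 5.17 and 2.08, and SAM1 and SAM2 by -5.14 and -2.42.

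**Figure D3:**
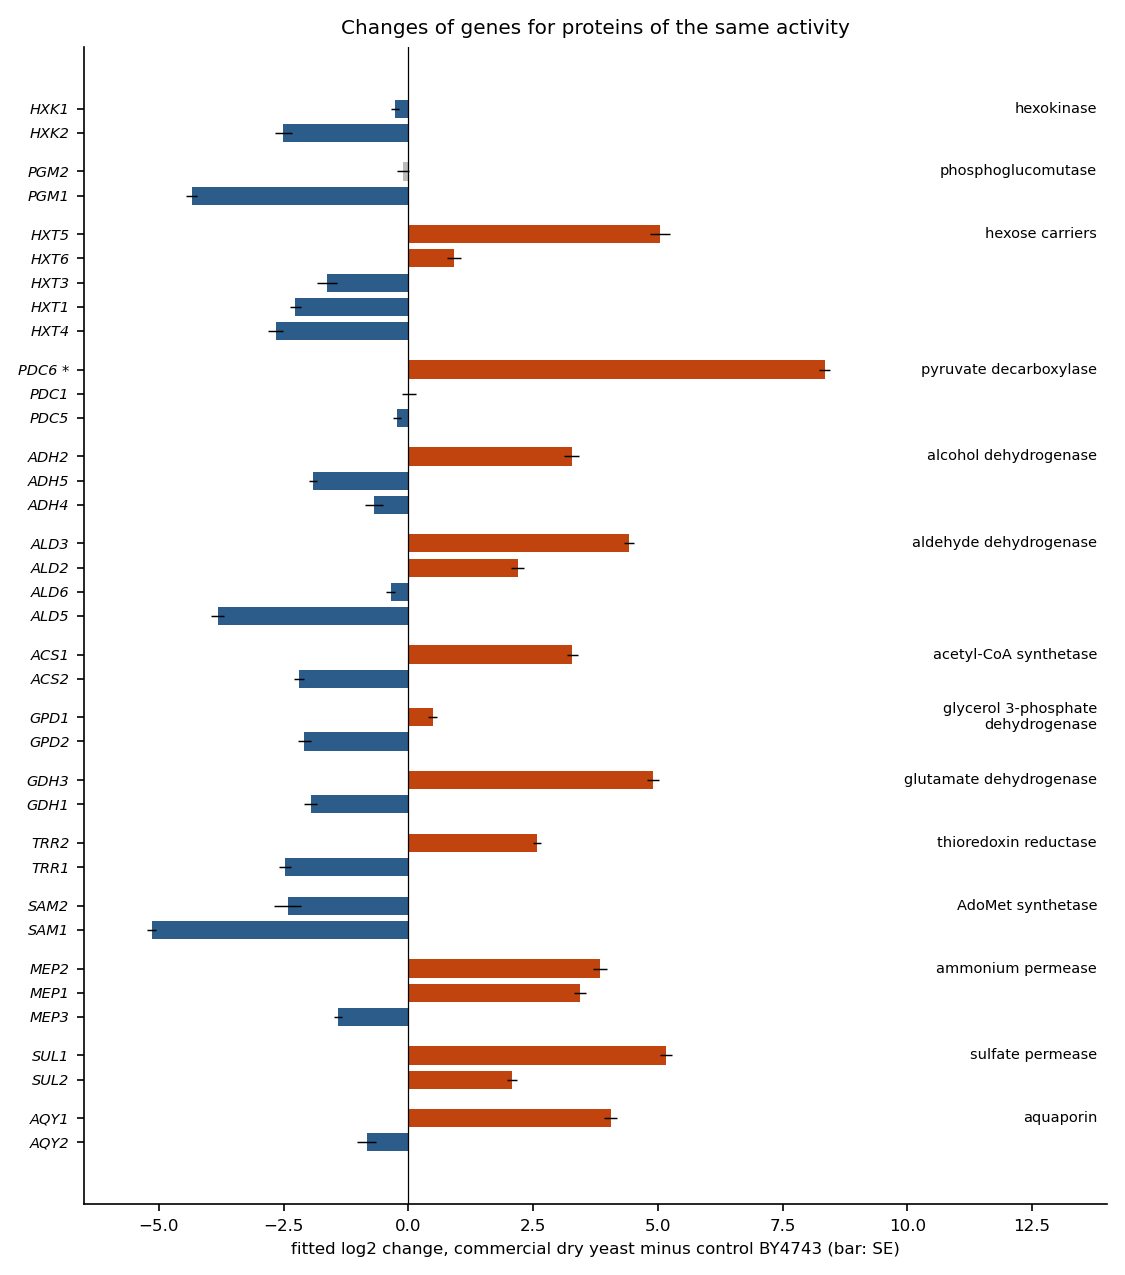
Fitted log2 change, commercial dry yeast minus control BY4743, of genes for proteins of one activity, with SE as error bars; orange bars are higher, blue lower and grey not past the threshold. An asterisk marks PDC6, which lay at background on all control arrays, so that its bar is no measured fold; HXT5 reaches 5.05 and HXT4 -2.66.

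Core glycolysis could not be read cleanly. Of 16 genes 3 were higher, 4 lower and 9 not past the threshold, with a median of 0.25. PGK1, phosphoglycerate kinase, read 4474, 5329 and 3972 in commercial yeast and 129, 816 and 1242 in the control, and TPI1, triose phosphate isomerase, 5419, 5338 and 4786 against 527, 1611 and 1338. The control arrays scattered widely for these abundant transcripts, and the changes of 3.17 (SE 0.74) and 2.31 (SE 0.37) are uncertain. ENO2, enolase, was at the floor on 2 control arrays and at 1521 on the third, and ADH1, the fermentative alcohol dehydrogenase, ran from 175 to 2344 in the control. The cause of this scatter was not tested.

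Of 14 genes for maltose, isomaltose, sucrose and galactose 10 were higher and 2 lower (median 1.48), but 3 and 5 (median 0.11) with the spike-in scaling. MAL11, an alpha-glucoside carrier, read 6328, 6214 and 6214 in commercial yeast and 467, 704 and 713 in the control, a change of 3.34 (SE 0.16, adjusted p = 7.71e-07). IMA1, isomaltase, read 1695, 1368 and 1642 in commercial yeast and 79.6, 100.1 and 103 in the control, and rose by 4.06 (SE 0.21). MAL31, a maltose carrier with shared probes, rose by 2.86, and GAL80, the repressor of galactose genes, fell by 1.16. FLO11, the surface protein of invasive growth and biofilms, read 3874, 4116 and 3863 in commercial yeast and 285, 298 and 253 in the control, a change of 3.83 (SE 0.15). It alone was called higher among 9 flocculin and adhesin genes, of which 6 were called lower, 2 of these at background in both groups. Of 31 genes whose copy number or presence is known to vary between strains 17 were called higher and 13 lower (median 0.44), 4 of the lower ones at background in both groups. With the spike-in scaling 10 were higher and 19 lower (median -1.14). SEO1, a putative permease, rose by 4.41 with 1 control array above background, and COS6 fell by 4.66 with 2 commercial arrays above background. A lower level and a sequence that the commercial strain lacks cannot be told apart on these arrays.

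Growth genes were lower, most of them moderately. Of 47 large-subunit ribosomal protein genes 35 were lower and 5 higher (median -0.996), and of 34 small-subunit genes 25 were lower and 4 higher (median -0.84). RPL13A read 465, 514 and 602 in commercial yeast and 4455, 4092 and 4233 in the control, a change of -3.02 (SE 0.15, adjusted p = 8.90e-07). RPS26B and RPS20 fell, with changes of -3.003 and -2.21. Those called higher were RPP0, RPL21A, RPL21B, RPL37A, RPL10, RPS2, RPS14B, RPS21A and ASC1. RPS14B read 3537, 3606 and 3585 in commercial yeast and 2347, 1905 and 1990.1 in the control, with a change of 0.79 (SE 0.14), and ASC1 changed by 0.84; both were negative with the spike-in scaling. For RPP0, RPL21A, RPL21B and RPS21A the control arrays scattered: RPP0 read 4499 ± 56.1 in commercial yeast and 152 ± 131 in the control, with 1 control array at the floor. Near-identical copies such as RPL21A and RPL21B can share probes, although their probe sets and that of RPP0 carry no shared-probe label. The changes of RPP0, RPL21A, RPL21B and RPS21A are uncertain, and the cause of the scatter was not tested.

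Ribosome biogenesis had a median of -0.74 over 89 genes, 62 of them lower and 13 higher. NOP1, the methyltransferase of pre-ribosomal RNA, read 404, 359 and 403 in commercial yeast and 2740, 2385 and 2680 in the control, well apart, with a change of -2.74 (SE 0.10). HAS1, a helicase, and NSR1, a nucleolar protein, fell, with changes of -2.96 and -2.79, while DBP7, another helicase, rose by 3.12 with 1 control array above background. RNA polymerases I and III had 21 of 35 genes lower and 11 higher (median -0.57). RPA43 and RPA190, subunits of polymerase I, fell, with changes of -3.46 and -2.13, and RRN3, which brings polymerase I to its promoter, rose by 3.39. Of 32 translation factors 26 were lower and 1 higher (median -1.0004). TEF4, an elongation factor subunit, and TIF4631, the scaffold eIF4G, fell, with changes of -3.21 and -3.18, and EFB1, another elongation factor subunit, was the higher one at 0.76, while its second probe set read -0.34 (SE 0.31), and its sign turned with the spike-in scaling. Of 68 mitochondrial ribosomal protein genes 38 were lower and 7 higher (median -0.48), and MRPS5 was at least 3.03-fold lower.

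Most genes of replication and mitosis were lower. Of 29 histone and replication genes 25 were lower and 4 higher (median -1.52). HTB2 had signals of 73.9, 90.1 and 89.5 in commercial yeast and 3238, 2187 and 2861 in the control. The other histone H2B gene, HTB1, read 2777 ± 229 in commercial yeast and 3545 ± 610 in the control, and its change of -0.34 (SE 0.13, adjusted p = 0.0498) was small and near the threshold, which it missed with only the 6 arrays compared, with the replicate block and without any one of these arrays except control replicate 2. POL30, the replication clamp, RNR1, the large subunit of ribonucleotide reductase, and RFA3, of the single-strand binding complex, fell, with changes of -3.40, -3.44 and -3.76, and MCM6, of the replicative helicase, was at least 1.97-fold lower. RNR2 and RNR4, the small subunits of that reductase, were higher by 0.39 and 0.46, and both turned negative with the spike-in scaling. RNR4 also missed the threshold without control replicate 3 (adjusted p = 0.0502). The 22 genes for cyclins and mitosis had a median of -1.07, with 14 called lower and 2 called higher. CLN1, CLN2 and CLB1, cyclins of the G1 and G2 phases, lay at background on all commercial arrays, and read 215 ± 16.3, 220 ± 15.7 and 204 ± 11.3 in the control, at least 5.76-fold, 5.91-fold and 5.50-fold lower. SIC1, the inhibitor that holds cells in G1, was higher by 0.38 (SE 0.08). This also turned negative with that scaling, and with arrays centred on their medians it was 0.18 (adjusted p = 0.0769).

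Amino acid and nucleotide synthesis genes were lower. Of 65 amino acid genes 53 were lower and 6 higher (median -1.41). LYS12, of lysine synthesis, ARO8, an aromatic aminotransferase, and HIS4 fell, with changes of -3.43, -3.42 and -3.02. ARG3, of arginine synthesis, rose by 3.07, with 1 control array above background. Of 33 purine and pyrimidine genes 26 were lower and 5 higher (median -1.52). URA4, dihydroorotase, read 339, 329 and 374 in commercial yeast and 3416, 3284 and 2978 in the control, a change of -3.21 (SE 0.09), and IMD4, IMP dehydrogenase, fell by 3.21.

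Of 30 genes for sulfate assimilation and methionine 20 were higher and 9 lower (median 1.07), but 4 and 14 (median -0.57) with the spike-in scaling. SUL1, a sulfate permease, read 1272, 1083 and 1122 in commercial yeast and 31.0, 37.2 and 29.1 in the control, of which 1 array lay above background, a fitted change of 5.17 (SE 0.12, adjusted p = 2.49e-08). MET2, homoserine acetyltransferase, and MET30, a ubiquitin ligase subunit that restrains the sulfur pathway, rose by 3.35 and 3.32. SAM1 and SAM2, the enzymes that spend methionine, fell, with changes of -5.14 and -2.42. Nitrogen catabolite genes and permeases split, 20 of 38 higher and 15 lower with a median of 0.50. MEP2 and MEP1, ammonium permeases, rose by 3.85 and 3.44, while MEP3, another ammonium permease, was lower, with a change of -1.42. DAL80, a regulator of nitrogen use, was at least 7.60-fold higher. TAT1 and AGP1, amino acid permeases of rich medium, fell, with changes of -4.72 and -4.07, TAT1 with 1 commercial array above background. Autophagy genes were mostly higher, 26 of 36 with 3 lower and a median of 0.77, except with the spike-in scaling, which gave 4 higher and 16 lower (median -0.69). ATG11, AMS1 and ATG1 rose by 3.50, 3.34 and 2.74. Of 38 proteasome genes 13 were higher and 8 lower (median 0.15), and RPN4, the activator of the set, rose by 2.14.

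Wall genes were mostly lower, while lipid, metal and vitamin genes moved both ways, as all genes did (37.2% higher and 41.9% lower). The wall list had the lowest median of the 44 lists, -2.34, with 35 of 44 genes lower and 8 higher. EGT2, a glucanase of cell separation, read 39.4, 40.8 and 45.0 in commercial yeast and 2768, 2879 and 2726 in the control, a change of -6.06 (SE 0.10) with 2 commercial arrays above background. CRH1, which links chitin to glucan, fell by 4.81, and EXG2, an exoglucanase, was at least 6.93-fold lower. CCW12, a mannoprotein, read 4101 ± 209 in commercial yeast and 1, 205 and 187 in the control, so its rise of 6.92 (SE 1.84) rests on scattered control arrays. Of 31 ergosterol genes 12 were higher and 15 lower (median -0.23): ERG4 and ERG2, of the late steps, fell, with changes of -3.99 and -2.47, and ARE2, which stores sterols as esters, rose by 2.08. Of 30 genes for fatty acids and phospholipids 10 were higher and 14 lower (median -0.31). INO1, inositol phosphate synthase, rose by 5.55 with 2 control arrays above background, and ELO3, a fatty acid elongase, fell by 3.79.

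Of 40 iron, copper and zinc genes 16 were higher and 19 lower (median 0.13). CTR1, the copper importer, was at least 6.57-fold lower, and CRS5, a metallothionein, rose by 4.19. Of 31 heme and oxygen-responsive genes 9 were higher and 13 lower (median -0.18), and HEM13, an oxygen-requiring enzyme of heme synthesis, fell by 3.47. Of 21 phosphate genes 7 were higher and 12 lower (median -0.60). PHO5, the secreted acid phosphatase, read 215, 249 and 247 in commercial yeast and 4256, 3424 and 3816 in the control, a change of -4.01 (SE 0.11). Of 29 vitamin genes 11 were higher and 13 lower (median -0.19). THI4, of thiamine synthesis, read 1585, 1863 and 1712 in commercial yeast and 39.8, 53.7 and 55.3 in the control, of which 2 arrays lay above background, and rose by 5.13 (SE 0.14). PHO3, a phosphatase induced without thiamine, fell by 6.40, with 1 commercial array above background.

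Of 25 stationary phase genes 22 were higher and 2 lower (median 1.97), but 11 and 7 (median 0.28) with the spike-in scaling. SPG1 rose by 4.88. MSN4, a stress activator, was one of the lower ones: it read 170.4, 135 and 132 in commercial yeast and 1047, 980 and 951 in the control (change -2.77, SE 0.19), while its partner MSN2 rose by 0.73 (SE 0.10), or changed by -1.02 with the spike-in scaling. Among 48 regulators of glucose, nutrient and stress signalling 28 were higher and 10 lower (median 0.42), but 3 and 31 (median -1.16) with that scaling. NRG1, a repressor of glucose-repressed genes, rose by 3.54, SCH9, a nutrient-sensing kinase, by 2.42, and RAS1 and MIG1 fell, with changes of -3.56 and -2.02. Of 45 meiosis and sporulation genes 22 were called higher and 8 lower, but 20 lay at background in both groups, among them 5 of the higher and 4 of the lower ones. With the spike-in scaling 9 were higher and 14 lower. IME1, the master activator of meiosis, read 4737, 3437 and 3828 in commercial yeast and 212, 184 and 227 in the control, a change of 4.26 (SE 0.13, adjusted p = 9.66e-08), and SPS100, a spore wall protein, rose by 5.42. IME1 and SPS100 are named for the size of their changes and do not stand for the meiosis list. Against dried BY4743 that list had 8 genes higher and 17 lower (median -0.43). Of 30 haploid mating genes 10 were called higher and 7 lower (median 0.25), 1 of each at background in both groups. The mating gene FUS2 lay at background in the control and was at least 2.25-fold higher in commercial yeast. BAR1 and MF(ALPHA)1, which mark haploid cells of either mating type, lay at background on all commercial arrays. These few genes do not stand for the whole list. MF(ALPHA)1 was above background on all 3 control arrays, at 137, 120 and 74.3, and at least 2.87-fold lower in commercial yeast. BAR1 was above it on 1 control array, and its call was lost with only the 6 arrays compared (adjusted p = 0.066). Of 10 genes of the DUP240 family 8 were lower and 2 higher (median -1.87), and UIP3, a member, was at least 8.25-fold lower.

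**Figure D4:**
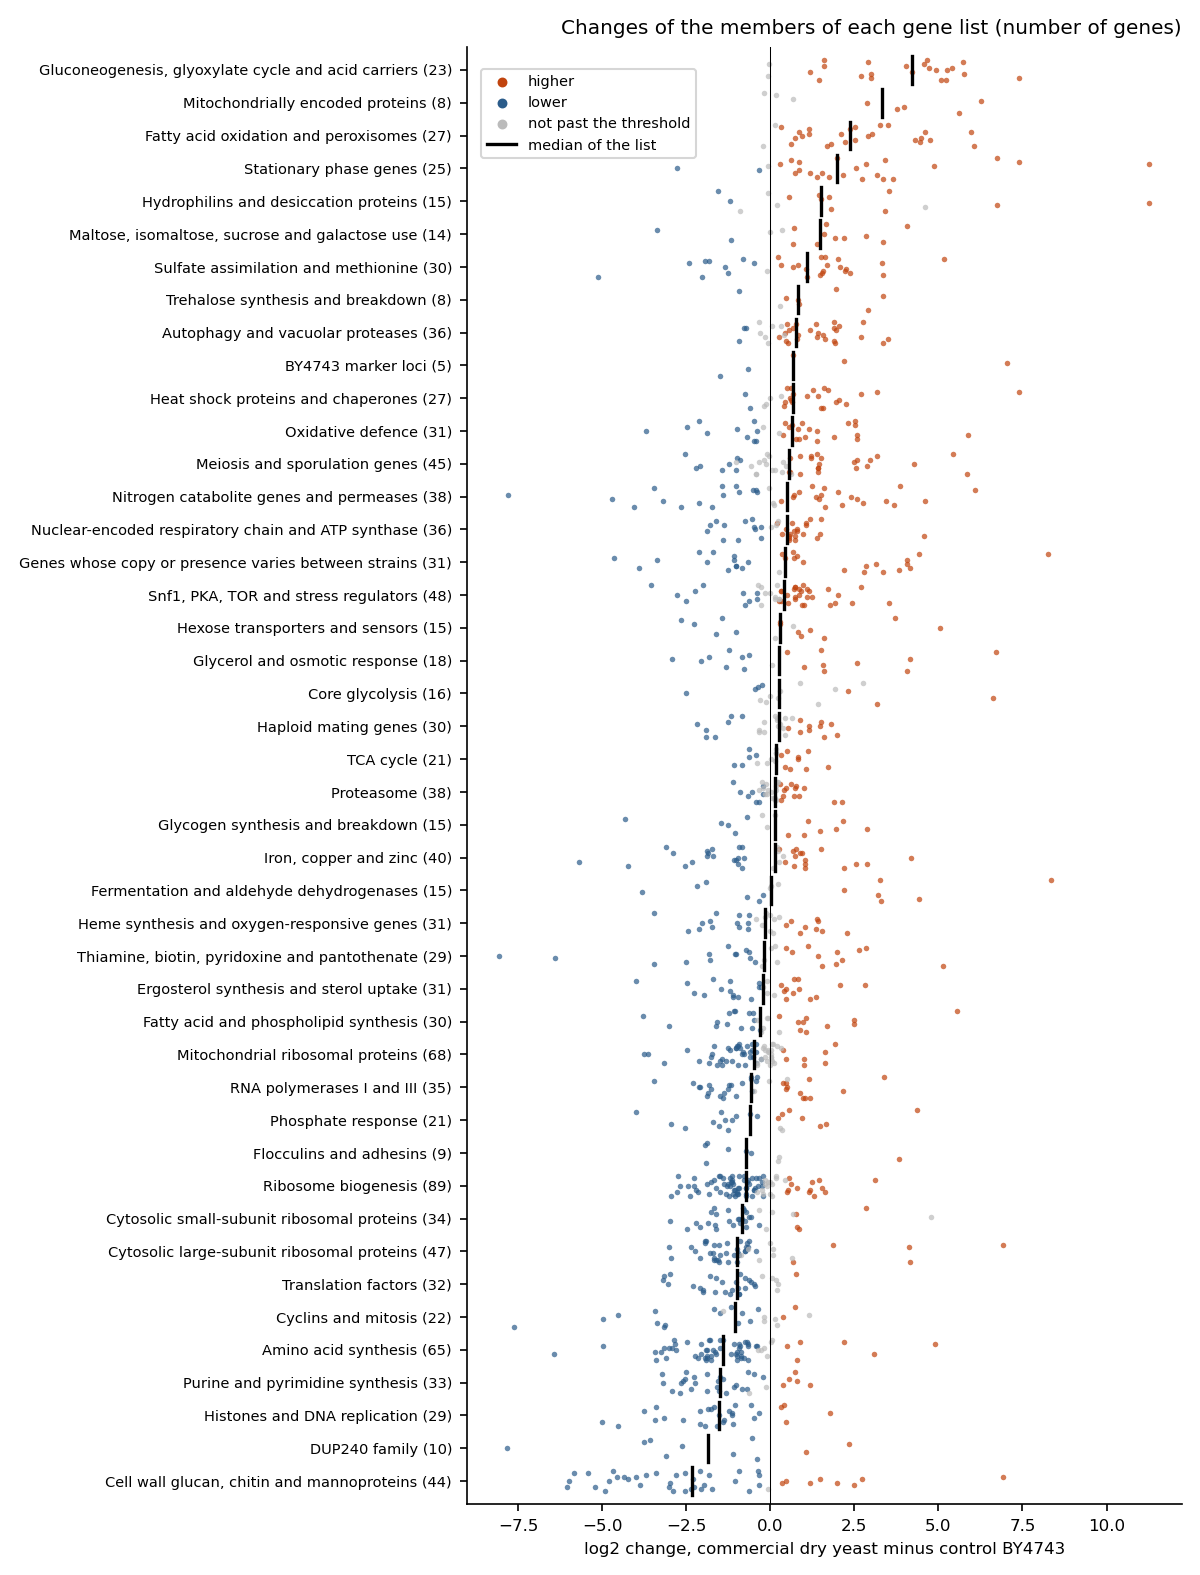
Log2 change, commercial dry yeast minus control BY4743 (horizontal axis), of every gene on the array in each of the 44 lists; black bars are list medians and colours the calls. Medians run from -2.34 for cell wall genes to 4.21 for gluconeogenesis genes, and most lists hold members on both sides of 0; with the spike-in scaling 21 of the medians change sign.

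The dried BY4743 arrays showed which of these differences also set commercial yeast apart from a dried laboratory strain. In that contrast, which shares the commercial arrays with the first, commercial yeast was higher on 3067 probe sets (33.1%) and lower on 3103 (33.5%), and on 1814 genes (32.1%) and 2156 genes (38.1%) by brightest probe set. Gluconeogenesis and fatty acid oxidation did not stand apart as lists, with 6 higher and 5 lower of 23 (median -0.01) and 10 higher and 9 lower of 27 (median 0.08). Cytosolic ribosomal proteins, which were lower than in the control, were higher than in dried BY4743 for 42 of 47 large-subunit and 31 of 34 small-subunit genes, with medians of 1.81 and 1.68. Histone and replication genes were lower than in dried BY4743 too, 23 of 29 with 2 higher and a median of -1.60.

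Single genes stood apart from both BY4743 groups. SUL1 read 1159 ± 99.8 in commercial yeast, 50.6 ± 3.02 in dried BY4743 and 32.4 ± 4.24 in the control, a difference to dried BY4743 of 4.52 (SE 0.12, adjusted p = 1.13e-07). THI4, with 79.3 ± 6.43 in dried BY4743, differed from it by 4.44, AQY1 by 3.85, ENA5 by 4.48, FLO11 by 5.17 and MAL11 by 3.78. IMA1 lay at background in dried BY4743 and was at least 30.8-fold higher in commercial yeast. PDC6 and STL1 read 136 ± 15.1 and 280.2 ± 26.6 in dried BY4743, which commercial yeast exceeded by 4.37 (SE 0.12) and 3.47 (SE 0.16). On the low side FET3 read 53.5 ± 7.61 in commercial yeast, 1134 ± 141 in dried BY4743 and 2780 ± 386 in the control, with a difference to dried BY4743 of -4.41 (SE 0.15). AGP1, PRM8 and MIG1 were lower than in dried BY4743 too: AGP1 differed from it by -4.10 and MIG1 by -2.04, and PRM8 was at least 21.2-fold lower.

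Because background was higher on dried BY4743 arrays, one signal can lie at background there and above it on commercial arrays. Of 5656 genes, 36 were at background on all arrays of both BY4743 groups and above it on all commercial arrays, 32 of them without shared probes. Among these were URA3, COX2, the sulfonate dioxygenase JLP1 and the mating gene FUS2. In reverse, 85 genes (81 without shared probes) were above background on all 6 BY4743 arrays and on 0 of 3 commercial arrays. PRY2, BAP3, PRM8, the photolyase PHR1 and the carrier ODC2 were in that set, and PHR1 read 23.1 ± 4.24 in commercial yeast, 216 ± 11.5 in dried BY4743 and 427 ± 4.81 in the control. A further 49 genes (43 without shared probes) were at background in the control alone and above it in both dry yeasts, among them SIP18, SSA3 and PRR2, a kinase gene.

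**Figure D5:**
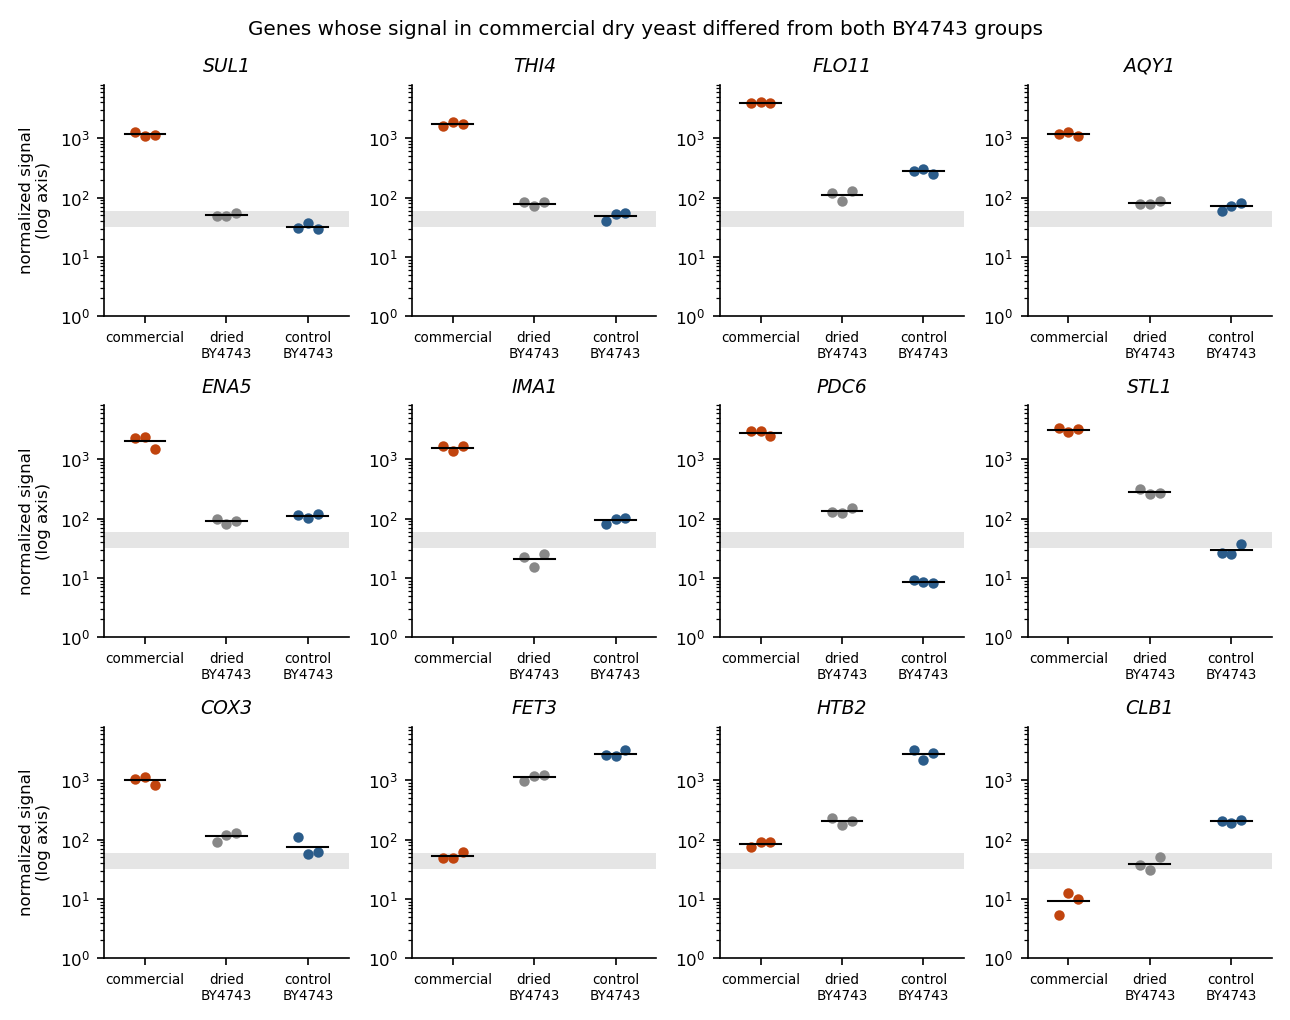
Normalized signal (vertical log axis) on each array of commercial dry yeast, dried BY4743 and control BY4743 for 12 genes; short lines are means over 3 arrays and the grey band spans array backgrounds. All commercial arrays of IMA1, FLO11 and ENA5 lie above every BY4743 array, and FET3 is at 53.5 there against 1134 in dried BY4743 and 2780 in the control.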

How the data were processed

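Groups and replicate numbers came from sample titles. Labelled cRNA was read with Affymetrix software, and a Wilcoxon test and linear mixed model were applied to the signals, per the labels' protocols, with no versions named. The deposited values are 1 linear intensity per probe set and array, which the authors had scaled: as deposited, array medians ran from 159.9 to 194.7, a span of 0.284 in log2. Signals under 1 were raised to 1, log2 was taken, and arrays were quantile normalized. One mean per group was fitted to all 9 arrays with limma 3.58.1 in R 4.3.3 (lmFit and eBayes, two-sided, 6 residual and 1.64 prior degrees of freedom), with Benjamini-Hochberg adjustment and a threshold of 0.05. The 60 array controls were left out. The number of arrays limits precision. The fit was tested on simulated data in which few probe sets changed and arrays were not normalized. That test does not bear on the scaling or on data where most probe sets are called. Symbols were updated by gene identifier through the RefSeq table of assembly R64; the files name no genome build, hence coordinates are left out, and no promoter or probe sequences were used. Named genes are the 8 furthest in each direction measured on all arrays, the 8 brightest of those at background in one group, up to 4 members per list, up to 2 opposed members per list and the 5 BY4743 marker genes, from probe sets without shared probes; not all are printed. The gene lists, the background level and the members were chosen with earlier results of these data known. Genes printed outside this rule were chosen after their values were seen: HSP12, STF2, TPS1, TSL1, GSY1, SSA4, HSP104, CTT1, HOG1, PCK1, FBP1, ICL1, POT1, CYT1, VAR1, PDC1, HXK1, PGM2, GDH1, ENO2, ADH1, MAL31, RPS21A, HTB1, POL30, ARO8, HIS4, MEP2, MEP1, MEP3, AGP1, CRH1, MSN2, SCH9, MIG1, JLP1, PHR1, ODC2, PRR2, YCL048W-A, YHR033W, YLR179C, YOR385W, COS12, YGL262W, YGL260W, YMR175W-A, ECM5, SYG1, YIL046W-A, NCW2, NMT1, PWP1, NOP56, RPL37A, RPL10, RPS2 and SUL2. Same-numbered arrays did not deviate together (correlations of their deviations 0.0301, -0.0349 and -0.0237). Labels and value table give no scan date, and batch and group cannot be told apart where they coincide. Alternatives were the scaling, an offset of 50, a floor at background, no dim or shared-probe sets, only 6 arrays, a replicate block and leaving out each array.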

Additional observations from a re-analysis of the deposited data

Results flagged for a closer look

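Among control probe sets outside the tests, 13 read higher on every commercial array than on every control array. The bacterial spike-ins were all among them: BioB read 263.2, 227.3 and 309.0 by its 3', 5' and middle probe sets in commercial yeast and 90.02, 92.61 and 49.92 in the control. BioC read 595.4 (3') and 949.3 (5') in commercial yeast and 365.5 and 473.3 in the control. BioDn read 3751 and 1280 in commercial yeast and 1692 and 236.7 in the control, and CreX 4530 and 4593 against 1615 and 1471 in the control. The first 25S ribosomal RNA probe set read 3349 in commercial yeast and 989.4 in the control. The URA3 control probe set read 681.2 in commercial yeast and 4.382 in the control, RIP1, of the respiratory chain, 1381 and 916.7, and the 3' probe set of SPT15, the TATA-binding protein, 2098 and 1398. All values are means over 3 arrays. Their part in the results was not tested, apart from the scaling to the spike-ins given below.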

How the results depend on the processing

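Scaling to the spike-in controls changed the counts most: commercial yeast then had 814 higher and 6070 lower probe sets than the control (11.8% of calls higher), and 819 higher and 5387 lower than in dried BY4743; 771 probe sets of the comparison with the control were then called in the direction opposite to the one reported. Of the 219 genes the naming rule gives, 185 kept their call, 16 lost it and 18 changed sign under that scaling. Those 18 were SDH1 (-0.61), LSC2 (-0.64), ASC1 (-0.78), RPS14B (-0.76), MRPL28 (-0.0040), TFC6 (-0.36), EFB1 (-0.78), MBP1 (-0.77), SIC1 (-1.32), RNR4 (-0.99), RNR2 (-1.07), PRS2 (-0.59), URA10 (-0.76), UPC2 (-0.0886), HAP2 (-0.0773), PHO87 (-0.0403), MET17 (-0.97) and DFP3 (-0.35). The cause was not tested. With the signals as deposited 57.1% of calls were higher, and with a floor at background 48.3%, or 38.4% against dried BY4743. Leaving out 1 array at a time gave 3115 to 3179 higher and 3260 to 3336 lower probe sets. The labels' replicate numbers did not pair the arrays, and with the replicate block 3241 were higher and 3377 lower, or 2974 and 3041 against dried BY4743. Outside the spike-in scaling and the filter on dim probe sets, at least 215 of the 219 genes kept their call. That filter left 199 to test, and these kept it. Signals near background limit small changes, and 409 of the calls are of probe sets at background on every commercial and control array.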

Other observations

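Of 522 genes with only a systematic name 277 (53.1%) were higher and 149 (28.5%) lower in commercial yeast, with a median change of 0.59, against 1825 (35.5%) and 2219 (43.2%) of 5134 genes with a standard name, with a median of -0.14. Both groups lay at background for 47 of the systematic names. YCL048W-A had signals of 2900.4, 3005 and 2732 in commercial yeast and 94.4, 71.9 and 88.6 in the control (change 5.09, SE 0.12). YHR033W read 3486 ± 260 in commercial yeast and 126 ± 11.8 in the control (change 4.79, SE 0.12). YLR179C and YOR385W changed by -3.34 and -2.60. These genes were picked by size after the values were seen, from probe sets without shared probes.

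By chromosome, the median change of measured genes ran from -0.35 on chromosome I (83 genes, 27 higher and 38 lower) to 0.10 on chromosome VIII (249 genes) among nuclear chromosomes. Against dried BY4743 the median of chromosome I was -0.22. COS12, YGL262W and YGL260W, 3 neighbours at the left end of chromosome VII, were at background in the control and above it on all commercial arrays, as were SIP18, YMR175W-A and ECM5 on chromosome XIII, whose overlapping transcripts could not be told apart. SYG1, YIL046W-A, MET30 and PIG2 on chromosome IX each had a fitted change of at least 4-fold upward, YIL046W-A from background in the control, and NCW2, NMT1, PWP1 and NOP56 on chromosome XII of at least 4-fold downward.

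Probe sets that name no gene, 2443 in all, were higher in 851 cases, lower in 603 and not past the threshold in 989. Over all 9275 probe sets 3293 (35.5%) were higher and 3434 (37%) lower. Among 315 genes with several probe sets, 55 had probe sets called in both directions, so a gene's change can depend on the probe set that represents it.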
